A study of Rattus norvegicus with 10 samples.

Results

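The list described here holds the m6A peaks of quiescent cardiomyocytes, called by the authors against a normal IgG control. It was taken whole, with the matching summit of every peak, and has 68440 of the 133979 peaks deposited for the series. The other 65539 belong to hypertrophic cells. The cells were primary cardiomyocytes from rat pups 1 to 3 days old, kept in M199 medium without serum for the quiescent group and with 2% bovine serum for the hypertrophic group. Of the 10 libraries in 5 groups of 2, this list rests on the m6A immunoprecipitates (IP) of quiescent cells and on IgG immunoprecipitates, and the labels place both IgG libraries in serum-treated, hypertrophic cells. Primary isolates can hold other heart cells beside cardiomyocytes, and a peak list without gene names gives no marker with which to check this.

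N6-methyladenosine (m6A) is the most common internal modification of messenger RNA. A complex around the methyltransferases Mettl3 and Mettl14 writes it, the demethylases Fto and Alkbh5 can remove it, and YTH-domain proteins bind it and affect the stability and translation of the transcript. MeRIP-seq uses an anti-m6A antibody to capture RNA fragments that carry the mark, sequences them, and calls a peak wherever their reads exceed those of a control. Normal IgG binds no particular modification, so its reads record RNA that sticks without recognition, which tends to be abundant RNA.

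Each peak carries a start, an end, a score and the position and height of its summit. The score has the layout of the MACS 1.4 peak caller, in which it is 10 times the negative log10 of a p-value, and the summit height is the number of stacked reads at the highest base, with no scaling stated. There is 1 list per condition, so no value has a replicate error and nothing was tested. Shares are given with Wilson 95% intervals, which cover counting error only. Every peak had exactly 1 summit, and 0 were left unmatched.

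The middle 80% of widths ran from 186 to 844 bp, of scores from 59.3 to 678, and of summit heights from 7 to 70. The commonest height was 8, held by 4666 peaks, and the lowest was 4. At the top, 81 peaks had the largest height of 164, against a mean of 39.7 peaks for each of the 10 heights just below it, and 699 peaks lay at 148 or more. Scores piled up at a similar wall, with 603 peaks at exactly 3100 and 45 above it. Peaks that share one of these values cannot be ranked by it. Whether the peaks at exactly 3100 are weaker than the 45 above was not tested.

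Score, width and height rose together, but loosely. Across the 68440 peaks, Spearman's rho was 0.644 between score and height, 0.608 between score and width, and 0.569 between width and height. These points share libraries and a common score threshold of 50, so the coefficients describe the list and carry no p-value. The score spread widened with height. Peaks with heights of 4 to 6 had a median score of 59.4, and 90% of them lay between 51.0 and 92.2. At heights of 51 to 80 the median was 374, and the same central 90% ran from 64.3 to 2722. Tall pileups thus took scores from near the threshold to near the top, whereas at the lowest heights most scores stayed close to the threshold. The median width rose over the same steps from 239 to 598 bp, and reached 1104 bp at heights of 121 to 164.

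Part of that spread can be read from the scores themselves. Scores were repeated far more than their 2 decimals require: 174 values were each held by at least 30 peaks and took in 11005 peaks. In MACS, a score compares the reads in a peak with an expected count, which is the larger of a uniform genome-wide rate and the rates of control reads near the peak. If the uniform rate decides, the score depends only on a whole number of reads and on the width. Deposited scores were therefore set against the Poisson tail for whole read counts at a uniform rate, with the rate read from the scores. A single rate of 5.25 expected reads per kb, held constant at 0.861 for widths of 164 bp and below, matched 28052 peaks (41.0%, interval 40.6 to 41.4%) to within 0.006 score units. With the rate lowered or raised by a factor of 0.99 or 1.01, only 0.0526% or 0.0511% matched, which shows how few matches arise by coincidence.

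**Figure D1:**
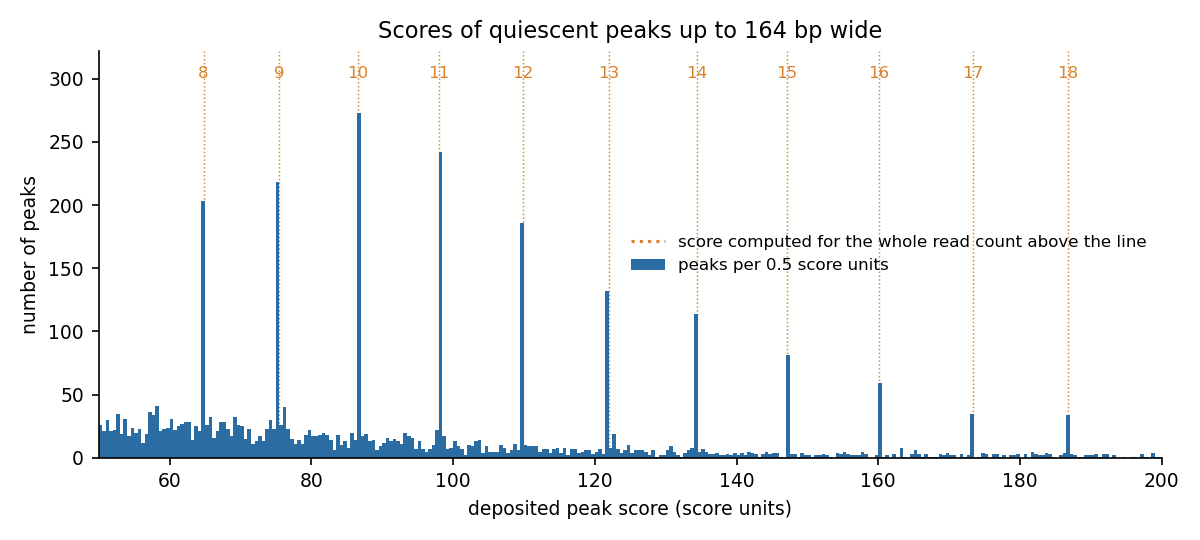
Deposited scores of the 4497 quiescent peaks up to 164 bp wide (horizontal axis, score units, shown up to 200) against the number of peaks per 0.5 score units (vertical axis). Dotted lines mark the scores computed for 8 to 18 reads at an expected count of 0.861, and the tall bars stand on these lines.

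The narrowest peaks show the pattern most directly. Among the 4497 peaks up to 164 bp wide, 1682 (37.4%) lay on 36 computed scores. A score of 64.8 stood for 8 reads and was held by 182 of them, 75.5 stood for 9 reads with 199 peaks, and 86.6 stood for 10 reads with 258 peaks. The summit heights of the peaks at 8 reads were 7 or 8, so nearly every read of such a peak overlapped its summit. Over all 28052 matched peaks, the summit was taller than the recovered read count in 32 (0.114%), and the median ratio of reads to height was 1.64. The recovered counts give the depth behind these peaks: the median was 15 reads, with quartiles of 10 and 30, the smallest was 7 and the largest 282. The matched peaks held a median of 10.4 times their expected count, with quartiles of 8.03 and 15.1.

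Peaks scored at the uniform background were lower than the rest. Their median height was 9, against 24 for the 39740 peaks below 3100 whose scores did not match it, and their median width was 285 against 393 bp. The share at the uniform background did not fall evenly with width: it was 37.4% up to 164 bp, 58.6% at 165 to 240 bp, 43.5% at 301 to 400 bp and 1.37% at 2001 bp or more. Their scores differed much less, with medians of 116 and 132. By height the share was 89.3% at 4 to 6, 52.5% at 10 to 12, 26.0% at 21 to 32 and 6.05% at 51 to 80. At heights of 121 to 164 it was 0.193%, or 4 of 2076 peaks, and the median read count recovered for those 4, 42.5, was below their heights. The 648 peaks at 3100 or above, whose scores could not be read in this way, count as unmatched in these shares. Both lists hold only scores of 50 or more, so low peaks with a higher expected count can be missing from them. The fall of the share with height is therefore not independent of that threshold. In the hypertrophic list, read in the same way with its own rate of 5.43 reads per kb, 23619 peaks (36.0%) were at the uniform background, and the share fell from 94.8% at heights of 5 to 6 to 12.7% at 33 to 50 and 0.206% at 121 to 164. Summits there were taller than the recovered read count in 7.17% of the matched peaks, so those read counts are less secure.

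Where the uniform rate applied, score followed height closely. Spearman's rho between score and height was 0.915 over the 28052 peaks at the uniform background and 0.580 over the other peaks below the score of 3100. Once the expected count is fixed, score and height both come from the same reads, so a close relation at the uniform background follows from how the score is built.

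**Figure D2:**
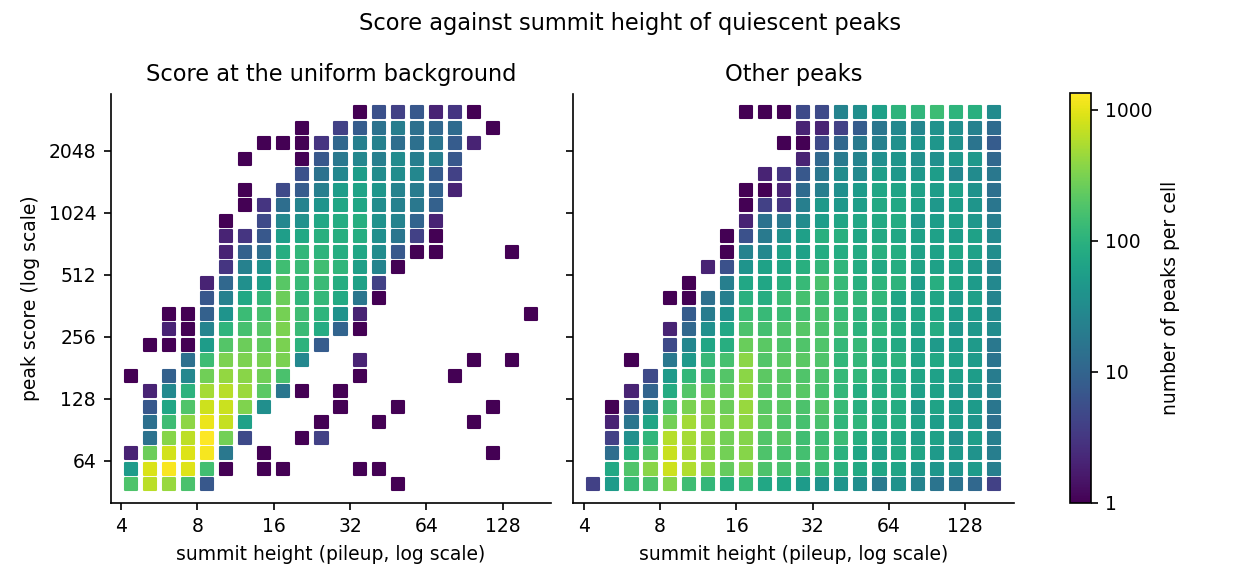
Peak score (vertical axis, log scale) against summit height (horizontal axis, log scale) for quiescent peaks at the uniform background (left) and all others (right); colour gives the number of peaks per cell. The left cloud is a narrow band (rho 0.915) with a few stray cells, and the right cloud (rho 0.580) is far broader, with low and high scores at the same height.

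A smaller set of scores fell on whole multiples of 1 step. Among peaks not at the uniform background, 1366 had the score expected for an expected count of 1.93, 822 for 2.90, 613 for 3.86 and 398 for 4.83, which are 2, 3, 4 and 5 times a step of 0.966. Moving the step up and down by a small amount left a mean of 41.5, 61.5, 86 and 45 matches. In the hypertrophic list the step was 1, with 1684 peaks at 2 steps and 1369 at 3. The uniform rates of both lists stood in the same ratio, 0.966. MACS forms a local expected count from whole control reads times a scaling factor. The IgG reads are not analysed here, and whether the step is that factor was not tested.

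A lower bound on the expected count can be given for all peaks below 3100 that were not at the uniform background, those on whole steps included. Taking the reads of a peak to be at least its summit height, this lower bound lay above the uniform count in 20859 of the 39740 other peaks (52.5%). In 2979 of them the bound was at least 10 times the uniform value. By the MACS rule given above, any unmatched score would come from a count above the uniform one. The 52.5% is therefore only the share in which the bound shows it. The premise held for all but 0.114% of the matched quiescent peaks, whose median height was only 9, and failed in 7.17% of the matched hypertrophic peaks. At heights of 81 to 120 it could be checked in 28 quiescent peaks, with a median of 160.5 recovered reads. At 121 to 164 only 4 could be checked, and their median of 42.5 recovered reads was below their heights. Whether those 4 matches were coincidences was not tested. The premise is thus not borne out at the heights of the tallest peaks, and the bounds below hold only under it. Among the 5 peaks with the lowest score for their height among the 6870 of height 70 or more, the pileups were 149 to 164 and the scores 50.5 to 52.0. For chr9:39167132-39167683, with a summit of 164 and a score of 52.0, the expected count was on this premise at least 39.6 times the uniform one. A second case, chr10:82935909-82936413, had a height of 162, a score of 51.7 and a bound of 42.7 times. The other peaks were chr6:91337535-91339112, chr10:85584032-85585313 and chr15:42522318-42523660, with bounds of 13.8, 17.0 and 14.6 times. None of these 5 tall but poorly scoring sites overlapped a hypertrophic peak. Of all 7362 quiescent peaks with scores of 50 to 60, 38.5% did, and of all 2076 with heights of 121 to 164, 83.0% did.

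At the opposite end, the 5 highest ratios of score to height belonged to peaks of 2038 to 5414 bp with heights of only 13 to 23. The peak chr8:81406558-81410018 scored 2134 with a height of 15. Its score matched 273 reads at the uniform background, spread over 3461 bp. Likewise chr10:89249590-89251627 scored 1839 with a height of 13, which matched 207 reads over 2038 bp. The peaks chr6:2877339-2882752, chr2:25369047-25372217 and chr8:21673349-21675916 were at the score wall of 3100, so their reads could not be recovered. All 5 overlapped a hypertrophic peak, with best partner scores from 323 to 3100. So did 99.7% of the 1437 quiescent peaks with scores of 1600 to 3096 and all 648 at 3100 or above.

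The quiescent list sets reads from serum-free cells against IgG reads from serum-treated cells. The hypertrophic list was called against the same IgG group, the only one of the series, which matches the serum of its own cells. An RNA scarcer with serum than without it would meet few control reads, and one with the reverse pattern would meet many. The input libraries, which would give the RNA levels, are not analysed here. For a single site, a change in methylation, a change in transcript level and the unmatched control cannot be told apart in this list. What can be measured is where the uniform rate decided the score, and how often those sites had a partner, meaning an overlap of at least 1 bp with a hypertrophic peak. As both lists share the control, a partner is not an independent check of a site. Of all quiescent peaks 71.0% had a partner, and of all hypertrophic peaks 74.2%.

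The share of quiescent peaks with a partner was 59.5% (interval 58.9 to 60.1%) at the uniform background and 78.6% (interval 78.2 to 79.0%) among the other peaks below 3100. Within bands of height the order changed. At heights of 4 to 6 the shares were 32.2% and 44.0%, at 10 to 12 they were 62.3% and 62.7%, and at 21 to 32 they were 96.1% and 86.5%. At heights of 33 to 50, 99.4% of 963 peaks at the uniform background had a partner, against 89.9% of 5560 others. Above a height of 12 and up to 80, the share was thus higher at the uniform background than elsewhere. Within bands of score it was lower at the uniform background in every band below 3100. The shares were 29.3% and 46.4% at scores of 50 to 60, 79.2% and 94.8% at 200 to 400, and 99.4% and 99.8% at 1600 to 3096. Bands of score are not independent of the uniform background, which was read from score and width. At heights of 121 to 164, 83.0% of 2076 quiescent peaks had a partner, below the 91.7% at 51 to 80, whereas in the hypertrophic list the share went from 88.7% to 94.8% over the same bands.

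**Figure D3:**
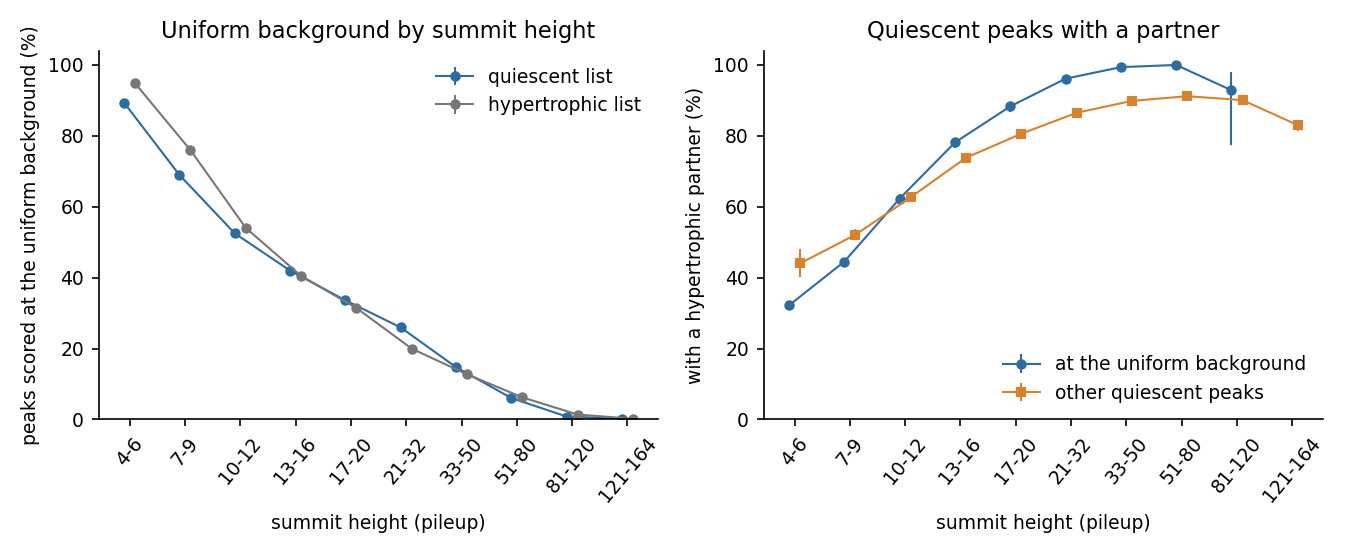
Left, share of peaks scored at the uniform background (vertical axis, %) by summit height (horizontal axis) in the quiescent and hypertrophic lists; right, share of quiescent peaks with a hypertrophic partner at the uniform background (blue, bands of at least 20 peaks) and elsewhere (orange). Bars are Wilson 95% intervals. The left curves fall from 89.3% and 94.8% to 0.193% and 0.206%, in lists that hold only scores of 50 or more. The right curves meet at heights of 10 to 12 and then cross.

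Of 1561 quiescent peaks without a partner and with scores from 200 to below 3100, 1124 matched the uniform background (72.0%, interval 69.7 to 74.2%), against 7437 of 21137 strong peaks with a partner (35.2%, interval 34.5 to 35.8%). In the hypertrophic list the corresponding shares were 26.8% of 421 peaks and 29.3% of 19520. The difference between the lists was not tested. The uniform background was read from score and width. Shares in a set cut on score are therefore not independent of that cut. Strong unpartnered quiescent peaks were also lower, with a median height of 15 against 32, and the shares lay closer within bands of height. At heights of 12 or less they were 93.2% of 443 unpartnered and 84.6% of 765 partnered peaks. At 13 to 20 they were 80.1% of 764 unpartnered and 67.6% of 4596 partnered peaks. At 21 to 32 they were 49.7% and 45.0%, with intervals that overlap, and at 33 to 80 the order was reversed, with 5.88% of 85 and 17.6% of 7156. In the hypertrophic list the shares at heights of 13 to 20 were 64.5% of 107 unpartnered and 70.4% of 3008 partnered peaks, and at 21 to 32 they were 25.4% of 114 and 42.7% of 4435. Among unpartnered peaks of 13 to 20, the lists lay at 80.1% and 64.5%, closer than the 72.0% and 26.8% over all heights. At 21 to 32 they lay at 49.7% and 25.4%, with intervals that do not overlap, and at 33 to 80 at 5.88% of 85 and 1.61% of 124. With partners defined by summits within 100 bp, the share among unpartnered strong peaks was 52.5%. The unpartnered peaks at the uniform background rested on a median of 35 recovered reads, and the partnered ones on 47.

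In all, 8743 quiescent peaks had a height below the list median of 16 and a score at or above the median of 126.5, and 69.8% of them (interval 68.8 to 70.8%) had a partner, close to the 71.0% of the list. At the uniform background were 75.1% of them. The reverse class, with tall pileups and low scores, held 8768 peaks, of which 68.0% had a partner and 0.182% were at the uniform background. Since the expected count was read from score and width, its split between these classes is not independent of how they were cut. Peaks with both values high had a partner in 95.1% of cases and those with both values low in 48.3%.

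Cutting each peak into 3 equal parts, 65.9% of summits (interval 65.5 to 66.2%) fell in the middle part. No summit was closer than 42 bp to a peak edge, and the commonest distance to the nearer edge was 80 bp. Distances of 73 to 82 bp held 19.5% of all summits. The files carry no strand, so the start of a peak need not be its 5' side; 53.7% of summits lay before the midpoint.

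Summit placement varied with width. In peaks up to 164 bp, 98.6% of summits were within 2 bp of the midpoint. With no summit closer than 42 bp to an edge and 80 bp the commonest distance, narrow peaks leave little room off centre. The middle share is therefore not independent of width. In peaks of 241 to 300 bp only 53.3% were in the middle part, and their positions formed a shoulder on each side of the centre. At 301 to 400 bp the middle share returned to 70.7%, and it then fell steadily to 54.5% at 601 to 1000 bp and 40.3% at 2001 bp or more. In this widest class, each 5% of the length away from the outermost 5% at either end held between 3.29% and 6.72% of the summits.

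**Figure D4:**
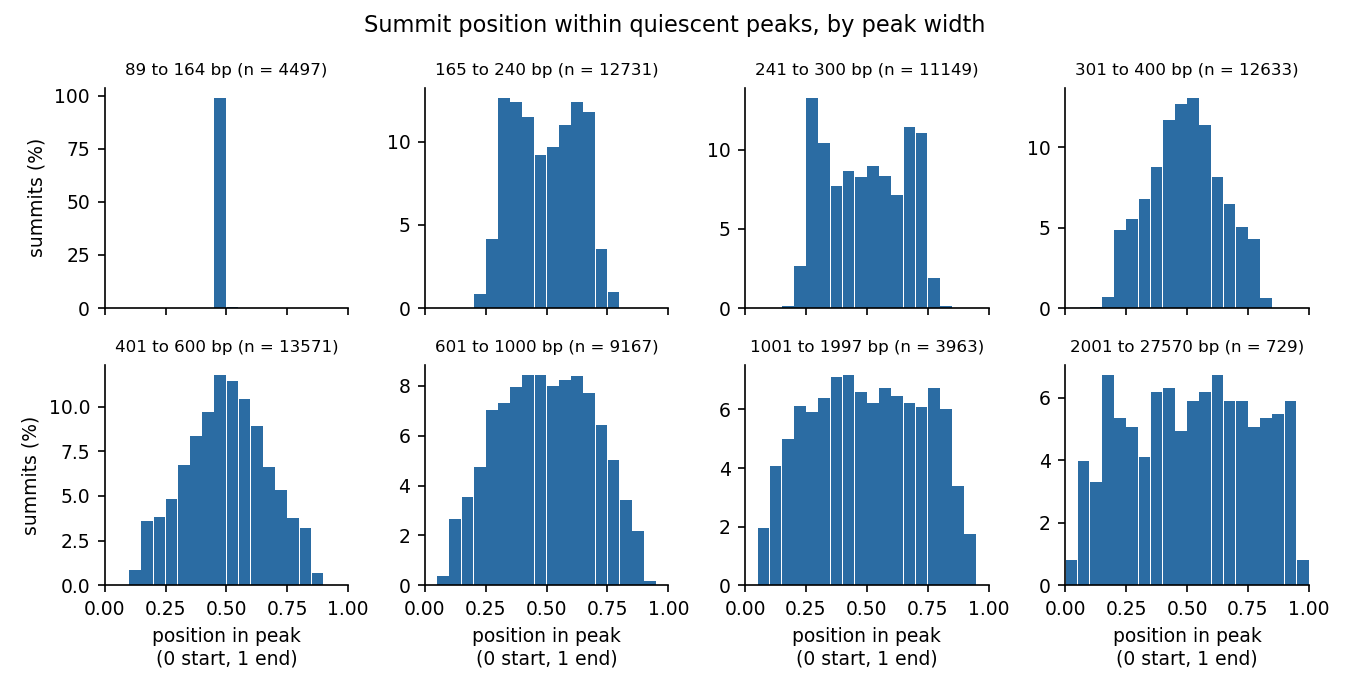
Summit position within quiescent peaks (horizontal axis, 0 at the start and 1 at the end) against the share of summits (vertical axis, %, scaled separately), in 8 classes of peak width. Summits sit at the centre up to 164 bp, form 2 shoulders at 165 to 300 bp, a single central hump at 301 to 600 bp, and spread out in wider peaks.

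The peak chrX:81828821-81856390 covered 27570 bp, scored 3100 and reached a height of only 66, and its summit lay 9240 bp from the nearer edge. Its best hypertrophic partner scored 487. The next widest, chr3:49477208-49487107, measured 9900 bp, scored 1048 at the maximal height of 164 and overlapped no hypertrophic peak. Nor did chr5:51439920-51447606, which reached a height of 138 over 7687 bp but a score of only 79.3. The peaks chr1:195313892-195321111 and chr18:26783635-26790813 were at 3100 in both lists.

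The 5 highest deposited scores lay just above the wall, from 3213 to 3225. They need not be the strongest peaks, since the rank of the peaks at exactly 3100 is not known. All 5 had partners, as did all 648 peaks at 3100 or above. They were chr6:27277925-27279304, chr9:87143869-87147145, chr8:72327216-72331151, chr15:2679853-2681476 and chr10:62719062-62720307. Their heights were 91, 77, 35, 77 and 145, so 4 of the 5 were at or above the 70 that marks the upper end of the middle 80%, and none reached 164. The tallest by rule, all at 164 and at 3100, were chr2:219969810-219975504, chr2:219976538-219981916, chr5:166548588-166550624, chr2:252951089-252952508 and chr5:16839913-16841300. The first and second of these are neighbours 1033 bp apart, and all 5 had hypertrophic partners with heights of 162 or 164.

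Peaks were unevenly spaced. From one peak to the next the median gap measured 13786 bp, and the quartiles lay at 3444 and 40171 bp. The mean of 39212 bp was far above the median. The shortest gap was 1 bp and the longest 2120198 bp. Summits were never closer than 134 bp. A neighbour within 1 kb was found for 15659 peaks (22.9%, interval 22.6 to 23.2%), which formed 6904 chains. Of these chains 5584 were pairs and 984 were triplets, and 34 held 6 peaks or more. In the hypertrophic list 22.1% of peaks were chained.

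Neighbours resembled each other in height, and much less in score. For pairs 1 to 50 bp apart rho was 0.494 for height, 0.342 for width and 0.127 for score. For height it was still 0.375 at gaps above 1000 and up to 5000 bp, 0.118 above 5000 and up to 20000 bp, and 0.0287 beyond 100000 bp. Neighbours also tended to be alike in whether they were at the uniform background. Only 1 of the 2 was so in 11.4% of pairs 1 to 50 bp apart, 25.8% above 1000 and up to 5000 bp and 49.7% beyond 100000 bp. Close neighbours can share the control reads near them, so likeness at short gaps is partly built into the score. These are descriptions across pairs from the same libraries. In chains of 2, the taller peak had a median of 1.71 times the height of the shorter, and in 18.3% of them the taller peak had the lower score. Summits lay on the side of the other peak of the chain in 5799 of 11143 peaks with an off-centre summit (52.0%, interval 51.1 to 53.0%).

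**Figure D5:**
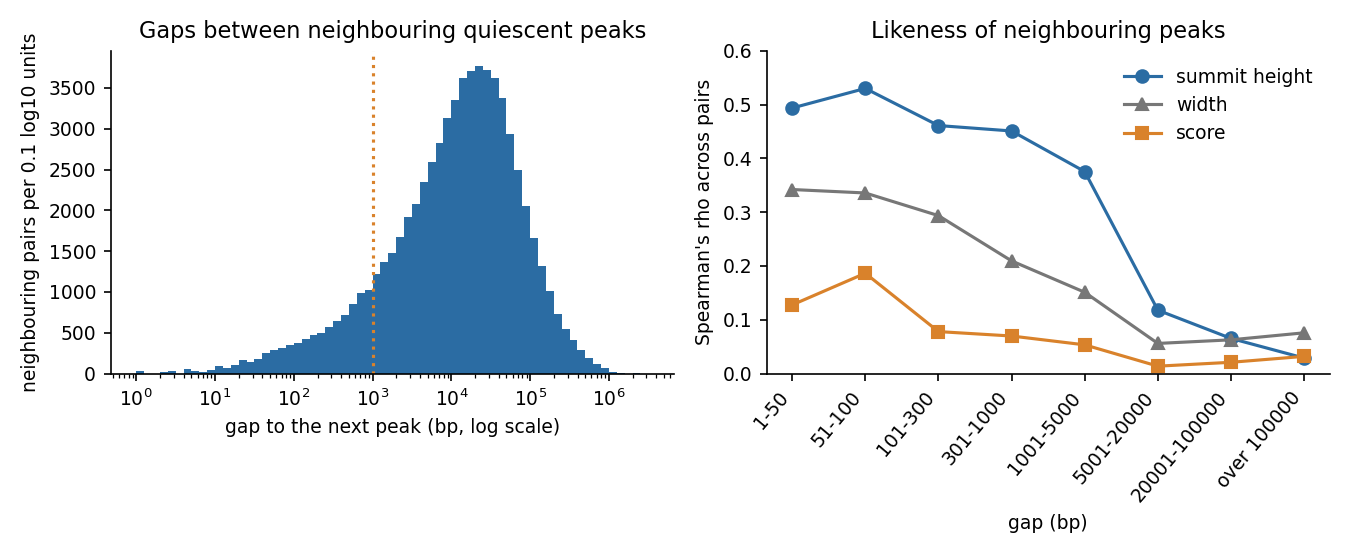
Left, number of neighbouring quiescent pairs (vertical axis, per 0.1 log10 units) by gap (horizontal axis, bp, log scale), with a dotted line at 1000 bp; right, Spearman's rho between neighbours (vertical axis) by gap class (horizontal axis, bp) for height, width and score. The commonest gaps lie somewhat above the median of 13786 bp, with a long tail of short gaps, and the likeness in height stays above 0.37 up to 5000 bp.

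The 52781 peaks without a neighbour had a median width of 333 bp, height of 15 and score of 122, and 41.4% were at the uniform background. Peaks in chains of 3 had medians of 394 bp, 17.5 and 144, with 37.9% at the uniform background. Longer chains did not continue this: in chains of 5 the median height was 14 and 54.9% (interval 49.9 to 59.9%) were at the uniform background, and in chains of 6 to 20 the values were 13 and 37.5%. Partners were found for 70.2% of solitary peaks, 73.4% in chains of 2, 74.3% in chains of 3 and 68.8% in chains of 6 to 20, against 71.0% of the list. The 1907 peaks with no other peak within 100000 bp on either side had a median width of 241 bp, a height of 11 and a score of 90.2. Of these, 55.8% were at the uniform background and 52.8% had a partner.

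The 5 longest chains had median heights from 10 to 15, near or below the list median of 16. The chain chr1:33121022-33137775 held 20 peaks over 16754 bp, with heights from 7 to 16 and a median gap of 189 bp. None of its peaks was at the uniform background, although they were low, and 16 of 20 had a partner. The chain chr16:18609045-18614530 was of the other kind: all of its 10 peaks were at the uniform background, with heights from 7 to 25 and scores from 129 to 933, and 3 had a partner. The chain chr1:228203325-228211844 had 10 peaks, 2 at the uniform background and 0 with a partner. In chr7:130374529-130383649, 1 of 11 peaks had a partner, and in chr1:111386334-111395763, 6 of 11 did; neither held a peak at the uniform background.

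The 5 most isolated peaks scored between 50.8 and 81.0, all below the list median of 126.5. The peak chr17:44425640-44425835 lay 1052739 bp from its nearest neighbour and had a score of 60.2 and a height of 10. The peak chrX:106699434-106699678 had a height of 5 and a score of 50.8, which matched 8 reads at the uniform background. For chr14:52720105-52720390 the score of 81.0 matched 12 reads. Both remaining peaks, chrX:131307434-131307649 and chrX:74429682-74429817, had partners, with hypertrophic scores of 107 and 92.8 above their own 55.1 and 67.4.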

How the data were processed

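The peak lists and summit files are the authors', deposited as 1 list per condition. Per the submitters' processing notes, CASAVA 1.8, TopHat and MACS 1.4 were used with rn4. Neither parameters nor any pooling of the 2 IP replicates is given in the sources used here. In those lists the deposited score is the authors' own value per peak, and the deposited summit signal is a read pileup with no scaling stated. Read totals and input libraries are not analysed here.

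Summits were joined to peaks by name. Deposited columns left out numbered 0. Coordinates are rn4, counted from 1; the gene and promoter tables at hand belong to GRCr8, so peaks are named by position and no sequence is shown. Chains are runs with gaps of at most 1000 bp. The uniform rate and the width below which it is constant were those that matched most scores below 3100, within 0.006, to the Poisson probability of more than a whole number of reads. The code was tested on simulated data.

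The named peaks are the 5 with the highest score, width, height, isolation and ratio of score to height, the 5 lowest such ratios among heights of 70 or more, and the 5 longest chains. Members and rules were chosen with earlier results of these data known, and the uniform-rate reading and its alternatives after seeing these files. The work used Python 3.11.15 with matplotlib 3.10.9, pandas 2.3.3, scipy 1.17.1 and numpy 2.4.6.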

Additional observations from a re-analysis of the deposited data

How the results depend on the processing

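No paired analysis was possible because each condition has 1 deposited list and no values per replicate. No correlation changed sign. With scores of at least 100, rho fell to 0.572 for score and height, 0.566 for score and width and 0.474 for width and height; as Pearson coefficients of log2 values these were 0.622, 0.618 and 0.603. Without peaks at the top of both scales, rho was 0.597 for score and width and 0.549 for width and height. The share of summits in the middle of 3 parts was 64.3% with scores of at least 100 and 54.2% in peaks at least 500 bp wide. The median gap was 22694 bp with scores of at least 100 and 14298 bp between summits. Peaks with a neighbour within 1 kb were 17.1% with scores of at least 100, 15.8% within 500 bp, 32.3% within 2 kb and 15.8% with 1 kb between summits. Partners of low-pileup, high-score peaks were 65.1% with an overlap of at least 50%, 56.4% with summits within 100 bp (62.4% of the whole list by that rule) and 51.7% of 29 peaks by quartiles. The share at the uniform background was 38.6% with scores of at least 100 and 41.4% of peaks below 3100. Among quiescent-only peaks it was 65.1% with scores of at least 100, against 39.3% of hypertrophic-only peaks, and 52.5% of 4533 peaks with partner summits within 100 bp, against 31.5% of 2867. The causes of these shifts were not tested. Depth is known only for the peaks at the uniform background, where at least 25% rest on 10 reads or fewer.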

Other observations

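Differences between chromosomes were not tested. Chained peaks made up 29.3% of the 2679 peaks of chromosome 16 and 18.6% of the 2179 peaks of chromosome 15, whose median gaps were 10276 and 19407 bp. Median summit heights lay between 13 on chromosome X and 17 on chromosomes 10, 18, 19 and 20. Chromosome X also had the shortest median width, 294 bp, and the lowest median score, 109. The share at the uniform background ran from 36.1% on chromosome 10 to 44.6% on chromosome 12, around the 41.0% of the list.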
